A study of Mus musculus with 12 samples.

Results

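Hippocampal RNA of App knock-in mice kept on a high-fat diet (HFD) was compared with that of App knock-in mice on a control diet, called a regular diet (RD) in the study. The comparison used every array of those mice, 3 HFD-fed and 3 RD-fed, which are 6 of the 12 arrays in the series. All 12 mice were males, 18 months old when hippocampi were taken after perfusion with saline, and each had been on its diet for 12 months. The 6 mice in the comparison carried App[NL-F/NL-F], in which the Swedish and Iberian mutations and a humanised Aβ sequence sit in both copies of the mouse App gene under its own promoter, so the RD-fed group carries the mutant gene as well. The HFD-fed mice are labelled diabetic and the RD-fed mice non-diabetic, so diet and diabetes cannot be told apart. The other 6 arrays came from wild-type mice, 3 on each diet, and gave the same diet difference without the mutations. One array was made from each mouse, and values are log2 signals of transcript clusters, the units that the array design treats as a gene.

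A diet rich in fat reaches the brain through circulating lipids, insulin and inflammatory signals, and the hippocampus is a site where both metabolic disease and amyloid deposition are studied for their effects on memory. Whole hippocampus holds neurons, glia, vessels and, depending on dissection, pieces of the choroid plexus, the secretory epithelium of the ventricles that makes transthyretin and lies against the hippocampus. In whole tissue, a lower signal can come from fewer cells of a type or from less RNA per cell, and the 2 cannot be told apart here.

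The arrays were alike in overall signal. Median log2 signal was 4.80 to 4.83 in the App arrays, 23.6% to 24.3% of clusters lay above an intensity of 100 (6.64 on the log2 scale), and pairs of the 12 arrays correlated at 0.982 to 0.988 across clusters. Hippocampal markers were well measured in every App array: Prox1, a transcription factor of dentate granule cells, lay between 7.66 and 8.34, and Fibcd1, a marker of CA1 pyramidal cells, between 7.19 and 8.02. App itself lay between 11.57 and 11.64 in the 6 App arrays and differed by 0.00 ± 0.06 (limma SE, n = 3 per diet), so that its level was no check of the labels. The first principal component of the clusters above an intensity of 100 carried 29.5% of the variance among the App arrays and set RD-fed mouse 1 apart, not the diets.

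No transcript cluster passed an adjusted p of 0.05 between HFD-fed and RD-fed App mice (0 of 41345, 0%; limma, Benjamini-Hochberg adjustment over all clusters), and the smallest adjusted p was 0.147. At an unadjusted p of 0.05, 967 clusters (2.34%) were higher and 944 (2.28%) were lower with HFD. The 3 HFD values lay above all 3 RD values in 2057 clusters (4.98%) and below them in 1920 (4.64%). Among the 9858 clusters whose mean lay above an intensity of 100, the quartiles of the differences were -0.05 and 0.07 on the log2 scale, and the median standard error was 0.09. In wild-type mice the same fit gave 0 clusters at an adjusted p of 0.05, with 1220 (2.95%) higher and 940 (2.27%) lower at an unadjusted p of 0.05. The diet-by-genotype interaction gave 0 clusters at an adjusted p of 0.05 and 2054 (4.97%) at an unadjusted p of 0.05. The values below are therefore sizes with their errors, and unadjusted p-values are printed to order them. The study names a fold limit and a minimum intensity for its own gene list. They were read here as more than a 1.5-fold difference and every group mean above an intensity of 100. An unadjusted p under 0.05 was added here. These limits left 4 clusters, 1 higher and 3 lower, none with a single gene symbol, and 2 of these had identical values on all arrays. Without the p limit, and with only the mean over all arrays above an intensity of 100, 5 clusters were more than 1.5-fold higher and 9 lower.

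**Figure D1:**
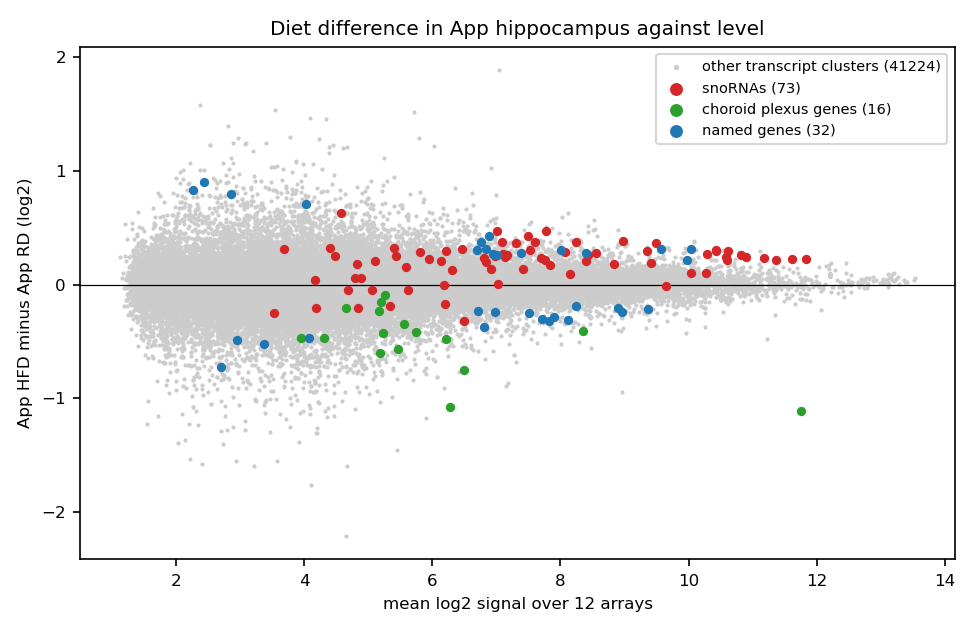
Difference between HFD-fed and RD-fed App mice (log2, vertical axis) against the mean log2 signal over the 12 arrays (horizontal axis) for each transcript cluster, with small nucleolar RNAs, choroid plexus genes and the genes named by rule in colour. Most of the bright small nucleolar RNAs lie a little above 0 (median of all 73 of them 0.23), and all 16 choroid plexus genes lie below it.

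Choroid plexus content differed between hippocampi, and it was kept apart from the diet comparison for that reason. Ttr, which encodes transthyretin and is the brightest gene of that epithelium, read 9.14, 13.03 and 13.24 in RD-fed App mice 1 to 3 and 13.15, 10.26 and 8.67 in HFD-fed App mice 1 to 3. Both diets thus held mice with a high and with a low level. The other choroid genes followed the same mice: in 16 of 16 measured genes, RD-fed mice 2 and 3 and HFD-fed mouse 1 lay above the other 3 App mice, with ranges over the App arrays of 1.09 to 4.57. Kl, which encodes the ageing-related hormone klotho, read 6.98, 8.80 and 9.32 with RD and 8.95, 7.73 and 7.20 with HFD. Folr1, a folate receptor of the epithelium, read 4.68, 6.07 and 6.59 with RD and 6.08, 5.13 and 4.86 with HFD. The median difference of the 16 genes was -0.45, against -0.00 over all clusters, with 0 genes at an unadjusted p of 0.05 and 0 with non-overlapping groups. In wild-type mice the median was 0.09. Leaving out RD-fed App mouse 1, the low RD array, took the App median to -1.01, and leaving out RD-fed App mouse 3, the highest RD array, took it to -0.03. With the mean choroid level of each array as a covariate, 764 of the 967 higher and 744 of the 944 lower clusters stayed at an unadjusted p under 0.05 in the same direction.

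Thalamus genes stood high in 1 HFD-fed mouse. Tcf7l2, a transcription factor of thalamic neurons that oligodendrocytes also use, read 5.63, 6.02 and 5.89 with RD and 7.26, 6.08 and 6.22 with HFD. The groups did not overlap, and HFD-fed mouse 1 lay far above the other 5. Prkcd, a protein kinase C isoform marking thalamic relay neurons, read 6.09, 6.85 and 7.31 with RD and 7.96, 6.80 and 7.11 with HFD, and there the groups overlapped. The mean of the 6 thalamus genes was 7.22 in HFD-fed mouse 1 and between 6.04 and 6.51 in the other App arrays. The median of the 6 differences was 0.36 with that mouse and 0.14 without it. Choroid genes and thalamus genes were both high in HFD-fed mouse 1, and their part in other differences was not tested beyond the fits without that array and with the choroid level as a covariate.

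**Figure D2:**
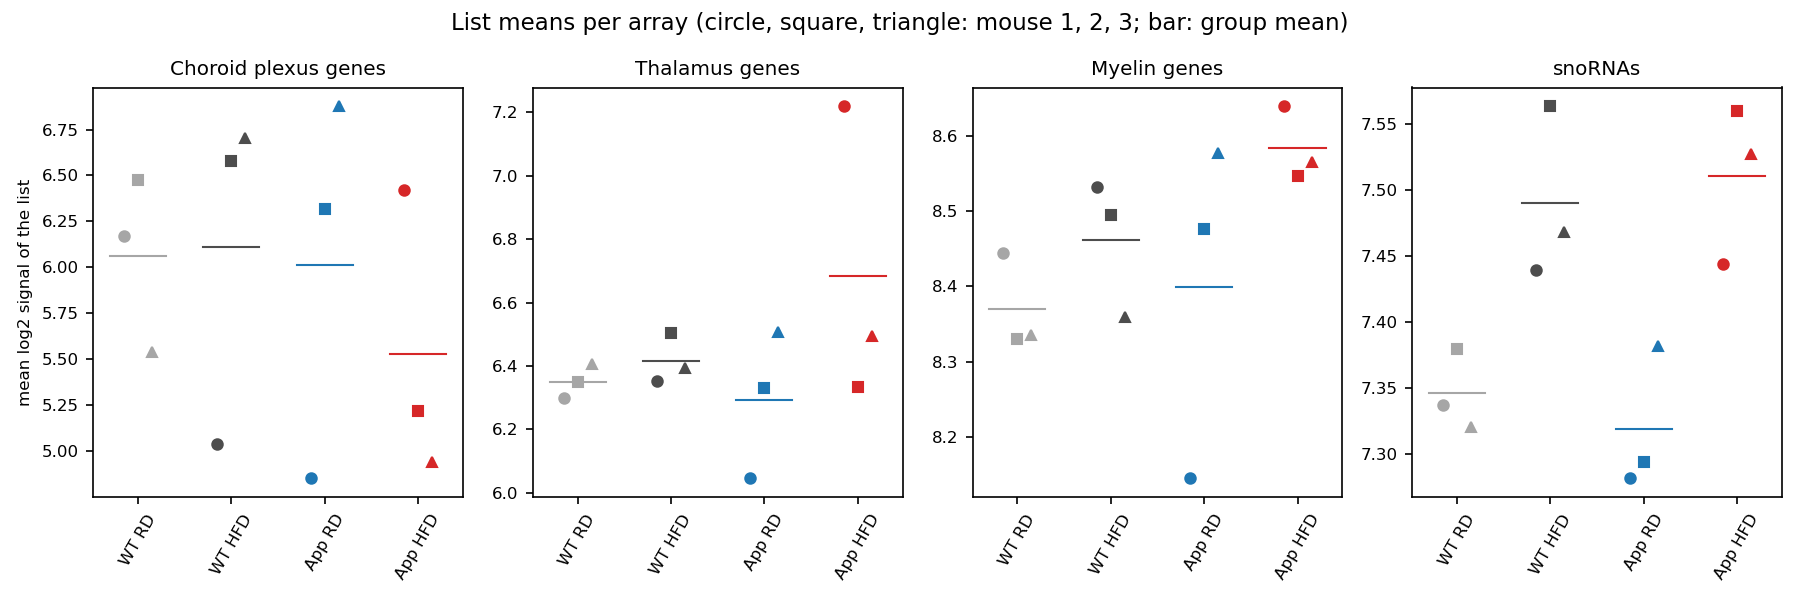
Mean log2 signal of 4 gene lists (vertical axes, each with its own range) in every array, by group; circles, squares and triangles are mice 1, 2 and 3 of a group and bars are group means. Choroid plexus level varies within each diet, the thalamus list is high in HFD-fed App mouse 1 (7.22), the myelin list is low in RD-fed App mouse 1, and the small nucleolar RNA list is higher in each HFD array than in any RD array.

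Small nucleolar RNAs (snoRNAs) were the list with the most members at an unadjusted p of 0.05. They are short nuclear RNAs, most of them cut out of introns of host genes, that guide the chemical modification of ribosomal RNA: C/D box snoRNAs (Snord) guide 2'-O-methylation and H/ACA box snoRNAs (Snora) guide pseudouridylation. Of 73 measured snoRNAs, 62 were higher with HFD in App mice, 35 of them (47.9%) at an unadjusted p of 0.05 against 2.34% of all clusters, and 0 were lower at that p. The groups did not overlap in 33, all with the HFD values higher, against 4.98% of all clusters. No snoRNA passed the adjusted threshold. The median difference was 0.23. Their mean level was 7.28, 7.29 and 7.38 in RD-fed App mice and 7.44, 7.56 and 7.53 in HFD-fed App mice, so that the gap between the diets was narrower than the range among HFD-fed mice. The list takes 1 cluster per gene symbol. Of all 98 clusters that RefSeq classes as snoRNAs, 35 (35.7%) were higher and 1 (1.02%) was lower at an unadjusted p of 0.05. Among these 98 the median was 0.20, and the groups did not overlap in 33 with HFD higher and in 1 with HFD lower.

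Snord104 read 9.23, 9.31 and 9.43 with RD and 9.60, 9.75 and 9.72 with HFD, a difference of 0.37 ± 0.09 (limma SE, n = 3 per diet, unadjusted p = 0.0017). Snord1b read 7.38, 7.27 and 7.26 with RD and 7.74, 7.79 and 7.66 with HFD, a difference of 0.43 ± 0.10. Snord49a read 10.15, 10.25 and 10.22 with RD and 10.46, 10.56 and 10.50 with HFD, a difference of 0.30 ± 0.07. In each of these 3 genes every HFD-fed App mouse was above every RD-fed App mouse. Among the H/ACA snoRNAs, Snora16a read 8.48, 8.43 and 8.62 with RD and 8.74, 8.86 and 8.76 with HFD, again without overlap. By class, 30 of 47 C/D box snoRNAs were at an unadjusted p of 0.05, all higher, with a median of 0.25. Among 26 H/ACA box snoRNAs, 5 were, with a median of 0.14. Differences at or below 0 were spread over both classes, the lowest being Snora35 at -0.32.

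The wild-type mice, which share no array with the App comparison, gave a median snoRNA difference of 0.18, with 64 of 73 higher. Of these, 13 were at an unadjusted p of 0.05, against 2.95% of all clusters. P-values in both genotypes used 1 estimate of the spread from all 12 arrays. The counts at that p are therefore not independent between genotypes. The wild-type means per array were 7.34, 7.38 and 7.32 with RD and 7.44, 7.56 and 7.47 with HFD. In 56 snoRNAs the difference was above 0 in both genotypes, and in 12 each of the 6 HFD arrays lay above each of the 6 RD arrays, among 70 such clusters on the whole array. The diet-by-genotype interaction was at an unadjusted p of 0.05 in 4 of the 73, against 4.97% of all clusters, a share near that background. The median App difference was 0.21 to 0.26 when any 1 of the 12 arrays was left out and 0.24 with the choroid level as a covariate. The number at an unadjusted p of 0.05 went from 35 to 23 without RD-fed App mouse 2. It was 25 without RD-fed App mouse 1 and 25 without HFD-fed App mouse 2. RNA quality values were not used here, and whether extraction or labelling ran by diet was not tested.

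The host genes lay nearer 0. RefSeq places 57 of the 73 snoRNAs inside exactly 1 other gene that was measured on the array, in 43 host genes in all, without regard to strand. The median difference was 0.23 for these snoRNAs and 0.01 for the hosts. At an unadjusted p of 0.05, 25 of the 57 snoRNAs were higher, against 2.34% of all clusters. Of the 43 hosts, 0 were at that p in either direction, near the 2.34% higher and 2.28% lower of all clusters. The snoRNA difference exceeded that of its own host in 48 of 57 pairs. Snord49a and Snord65 lie in 2410006H16Rik, which differed by -0.03. Snord82 and Snora75 lie in Ncl, the gene of nucleolin, and differed by 0.30 and 0.63 while Ncl differed by -0.04. Snord61 (0.30) lies in Rbmx, which differed by 0.05. Snhg3, a non-coding host, differed by 0.29, and its Snora73b by 0.30. Several snoRNAs share a host, and near-identical copies can share probes, so the 57 are not separate measurements. The clusters of Snora19, Snora21 and Snora28 had values identical to those of another cluster.

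**Figure D3:**
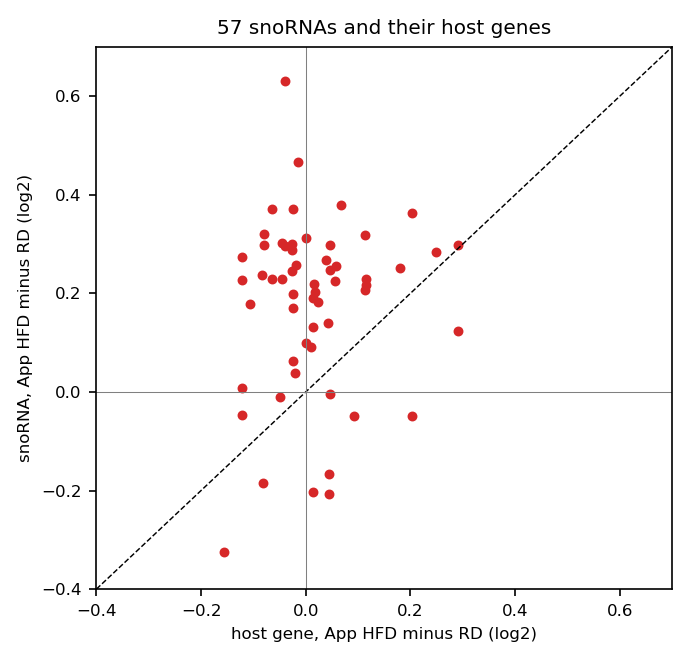
HFD minus RD difference in App mice (log2) of each of 57 snoRNAs (vertical axis) against that of the 1 gene that holds it (horizontal axis); the dashed line marks equal differences. Of the 57 points, 48 lie above the line, and host differences stay between -0.16 and 0.29.

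Ribosomal protein genes differed far less. Of 66 cytosolic ribosomal protein genes, 49 were higher with HFD in App mice, with a median of 0.06, and 2 were higher and 1 lower at an unadjusted p of 0.05 (3.03% and 1.52%, near the 2.34% and 2.28% of all clusters). Rplp0, the stalk protein P0, read 5.82, 6.08 and 6.19 with RD and 6.23, 6.38 and 6.43 with HFD. Rps27 was the other higher member (0.58 ± 0.23), and Rpl32l, a dim Rpl32-like gene, was the lower one (-0.47 ± 0.09). Over all 66 genes, the HFD values lay wholly above the RD values in 8 and wholly below them in 2. The shares of all clusters were 4.98% and 4.64%. Many of these genes have processed copies that share probes, and Rps27 had values identical to another cluster, so their values are uncertain.

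MicroRNA clusters gave no shared direction. Of 506 clusters that RefSeq names as microRNAs, 11 were higher and 19 lower at an unadjusted p of 0.05 (2.17% and 3.75%, against 2.34% and 2.28% of all clusters), with a median of -0.02. Mir3080 had the smallest p among the lower ones and Mir3473c among the higher ones, both picked after their values were seen. Their mature sequences, from RefSeq (GRCm38.p6), are shown to identify the products these loci give, with the seed (bases 2 to 8) in capitals. No seed is shared.
mmu-miR-3080-5p: uGAAGCGCcuguucuuggau
mmu-miR-3080-3p: uCCUCGGGcaaagcgcuugaca
mmu-miR-3473c: uCUCUCCAgcccccauaauaag
Mir3080 is on chromosome 15 and Mir3473c on chromosome 1. Mir3080 read 5.97, 5.97 and 6.09 in RD-fed App mice and 5.49, 5.68 and 5.66 in HFD-fed App mice, a difference of -0.40 ± 0.08, and 0.15 in wild-type mice. Mir3473c read 4.09, 3.66 and 4.24 with RD and 4.56, 4.52 and 4.52 with HFD, a difference of 0.53 ± 0.14, and its wild-type difference was -0.53. Neither pair of App groups overlapped. Both clusters were below an intensity of 100 (6.64), with means over the 12 arrays of 5.72 for Mir3080 and 4.52 for Mir3473c. The array targets RNA of the precursor locus, so these are not levels of the mature microRNA. The interaction had an adjusted p of 0.814 for Mir3080 and 0.782 for Mir3473c (limma).

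Among genes above an intensity of 100, the 12 named as higher and the 12 named as lower were chosen for small p-values and non-overlapping groups, so their separation below is a description. The higher genes differed by 0.22 to 0.42. Msrb1, a selenium-containing methionine sulfoxide reductase, read 6.63, 6.55 and 6.60 with RD and 6.92, 7.02 and 6.97 with HFD, a difference of 0.38 ± 0.09. Efnb3, the gene of the axon guidance ligand ephrin-B3, read 7.72, 7.80 and 7.95 with RD and 8.02, 8.24 and 8.11 with HFD. Ptcd3, which encodes a protein of the small mitochondrial ribosomal subunit, read 9.84, 9.74 and 9.94 with RD and 10.13, 10.16 and 10.16 with HFD. The spread among HFD-fed mice was widest for Efnb3 of these 3. Abcb10, a transporter of the inner mitochondrial membrane, was higher by 0.31 ± 0.10, Tpst2, a Golgi tyrosine sulfotransferase, by 0.27 ± 0.08, and Prrt1, an AMPA receptor-associated protein of synapses, by 0.22 ± 0.07. Timp4, an inhibitor of metalloproteinases, was higher by 0.26 ± 0.09, and Creb5, a CREB-family transcription factor, by 0.31 ± 0.10. Fam122a, Ssbp4, Myl9 and Apod complete the 12. The wild-type difference of Msrb1 was -0.08, that of Efnb3 -0.01, that of Creb5 0.21 and that of Apod, a lipid-binding lipocalin, 0.33. For Creb5 and Apod the wild-type groups did not overlap either.

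The 12 lower genes differed by -0.19 to -0.37. Clk1, a kinase of splicing factors, read 7.97, 8.05 and 8.11 with RD and 7.74, 7.75 and 7.79 with HFD, a difference of -0.28 ± 0.09. Zcrb1, a component of the minor spliceosome, lay between 8.93 and 9.06 in the RD-fed mice and read 8.77, 8.80 and 8.80 with HFD. Eif1b, a translation initiation factor, read 9.42, 9.50 and 9.56 with RD and 9.17, 9.36 and 9.30 with HFD. The HFD-fed mice lay close together for Clk1 and Zcrb1. Thoc7, of the THO complex for mRNA export, was lower by 0.25 ± 0.09, Gtf2e2, of the general transcription factor TFIIE, by 0.24 ± 0.08, and Pcgf5, a Polycomb component, by 0.24 ± 0.09. Spred1, an inhibitor of the Ras pathway, read 9.13, 9.13 and 9.06 with RD and 8.91, 8.77 and 8.92 with HFD. Mapk6, an atypical MAP kinase, differed by -0.31 ± 0.10. Ppp1r3c, which directs a phosphatase to glycogen, differed by -0.30 ± 0.09, and Chsy3, a chondroitin synthase, by -0.37 ± 0.11. P4ha1, a collagen prolyl hydroxylase, differed by -0.32 ± 0.10, and Txndc15, a thioredoxin-domain protein, by -0.19 ± 0.07. The wild-type differences of the 12 lower genes ran from -0.20 (P4ha1 and Gtf2e2) to 0.03 (Clk1 and Chsy3). For P4ha1 and Eif1b the wild-type groups did not overlap either, with HFD lower. Of the 24 genes, 24 kept their direction with the choroid level as a covariate. They were picked for their separation in these same arrays, so this outcome was likely in advance. It is no test of choroid content.

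**Figure D4:**
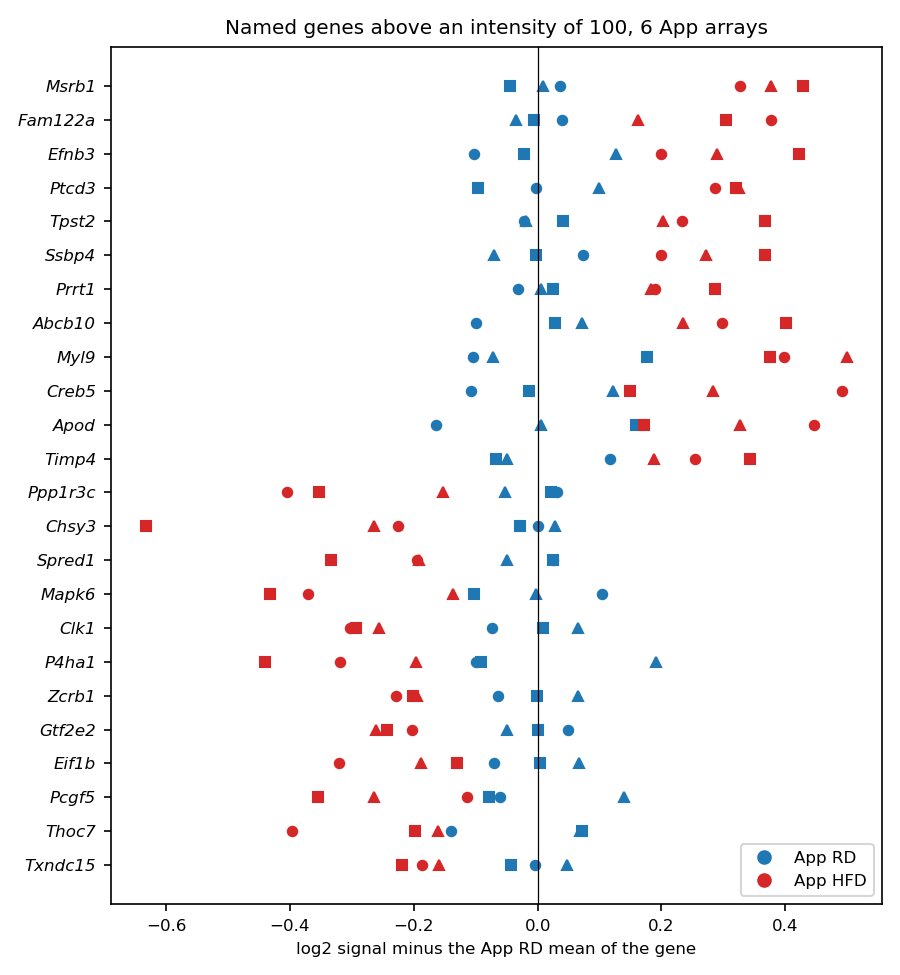
Log2 signal of each App array minus the mean of the 3 RD-fed App mice (horizontal axis) for the 24 genes named by rule above an intensity of 100; circles, squares and triangles are mice 1, 2 and 3 of each diet. The rule required the 2 groups not to overlap, and the gap between them is often narrower than the spread within HFD-fed mice.

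The list of splicing regulators and nuclear RNAs as a whole had a median of -0.04 in App mice, with 2 of 22 lower at an unadjusted p of 0.05, against 2.28% of all clusters, and a wild-type median of 0.04. The second of these was Ddx5, an RNA helicase, which read 11.38, 11.47 and 11.66 with RD and 11.19, 11.28 and 11.21 with HFD. Clk4, a relative of Clk1, differed by -0.18 ± 0.09, with 7.95, 8.13 and 8.12 with RD and 7.93, 7.88 and 7.86 with HFD. For both genes the App groups did not overlap, and the wild-type differences were 0.03 and 0.10.

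The smallest p-values on the array belonged to dim genes, where log2 signals near the array's floor make a difference hard to read. Dkk4, a secreted Wnt inhibitor, read 3.50, 3.55 and 3.58 in RD-fed App mice and 4.27, 4.36 and 4.14 in HFD-fed App mice, a difference of 0.71 ± 0.08 with an adjusted p of 0.147 (limma). In wild-type mice it read 4.24, 4.25 and 4.26 with RD and 4.01, 4.17 and 4.01 with HFD. The RD-fed App mice thus stood apart from the other 3 groups. Orm3, an orosomucoid, read 3.05, 3.02 and 2.97 with RD and 2.25, 2.24 and 2.38 with HFD in App mice, a difference of -0.73 ± 0.11, and 0.58 in wild-type mice. Its interaction of -1.31 ± 0.15 had the smallest adjusted p of all interactions, 0.194 (limma). The other dim genes named by rule were Obp1a, Sprr2d and H2bc9 (higher by 0.84, 0.80 and 0.90) and Rpl32l, Arr3 and BC048594 (differences of -0.47, -0.53 and -0.48).

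Myelin and oligodendrocyte genes were mostly higher with HFD. Of 15, 14 were higher, 4 of them at an unadjusted p of 0.05, against 2.34% of all clusters, with a median of 0.21 in App mice and 0.08 in wild-type mice. Cldn11, the tight junction protein of myelin, read 9.59, 9.89 and 9.93 with RD and 10.15, 10.10 and 10.00 with HFD. Olig2, a transcription factor of the oligodendrocyte lineage, read 7.81, 8.45 and 8.16 with RD and 8.57, 8.46 and 8.45 with HFD. Mobp, a myelin protein, and Myrf, the transcription factor that turns on myelin genes, differed by 0.23 ± 0.09 and 0.22 ± 0.09, and Mbp, the myelin basic protein, by 0.02 ± 0.08. RD-fed mouse 1 was the lowest App array in all 4 of the genes at that p. Without it the list median was 0.08 and 0 genes were at an unadjusted p of 0.05, and the number was also 0 without HFD-fed mouse 1.

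Reactive astrocyte genes gave 12 of 14 higher in App mice, 4 at an unadjusted p of 0.05, against 2.34% of all clusters, with a median of 0.14 and a wild-type median of 0.09. Lcn2, a secreted iron-siderophore binding protein of reactive glia, read 5.58, 4.76 and 4.83 with RD and 6.58, 6.74 and 6.40 with HFD, a difference of 1.52 ± 0.45. Osmr, an oncostatin M receptor subunit, read 6.54, 6.66 and 6.60 with RD and 6.80, 6.96 and 6.93 with HFD. Both had groups that did not overlap. S100a6, a calcium-binding protein, and Serpina3n, a protease inhibitor, each differed by 0.33 ± 0.12 with overlapping groups. Without HFD-fed mouse 3 the list median was 0.04. Antigen presentation genes were higher in 8 of 9 (median 0.17, 0 at an unadjusted p of 0.05), complement genes in 7 of 8 (median 0.14, also 0), interferon response genes in 10 of 12 (median 0.11, 1 of them, Rsad2) and plaque-associated microglia genes in 17 of 20 (median 0.06, 1 of them, Cd68), where 2.34% of all clusters were higher at that p. Homeostatic microglia genes had a median of 0.09, and genes of astrocyte transport and metabolism -0.04. Single mice carried much of these medians. Without RD-fed mouse 1 the median was -0.01 for homeostatic and 0.02 for plaque-associated microglia genes, and the latter was 0.14 without RD-fed mouse 3. Without HFD-fed mouse 2 it was 0.07 for antigen presentation and 0.06 for interferon response genes. The complement median stayed between 0.11 and 0.17 when any 1 array was left out. Wild-type medians were 0.12 for antigen presentation, 0.15 for complement, 0.05 for interferon response and 0.00 for plaque-associated microglia genes. In wild-type mice, 3 complement, 2 interferon response, 2 plaque-associated microglia and 0 antigen presentation genes were higher at an unadjusted p of 0.05. Of all clusters, 2.95% were.

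Immediate early genes, which neurons switch on within minutes of activity, were lower in 11 of 14 with a median of -0.11, whereas the wild-type median was 0.15. Arc, whose product acts in synaptic plasticity, read 9.11, 8.29 and 8.46 with RD and 8.10, 7.86 and 8.39 with HFD, a difference of -0.50 ± 0.21 with overlapping groups. Npas4, an activity-dependent transcription factor, read 6.87, 6.07 and 6.37 with RD and 5.97, 6.25 and 6.03 with HFD. RD-fed mouse 1 was the highest App array for both genes. Without that mouse the list median was 0.02, without HFD-fed mouse 2 it was 0.01, and the Arc difference was -0.26 without RD-fed mouse 1. The interaction was at an unadjusted p of 0.05 in 1 of the 14 genes, against 4.97% of all clusters.

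Synaptic gene lists lay close to 0. Presynaptic genes had a median of -0.02 and postsynaptic genes of 0.00. Homer1, a postsynaptic scaffold, differed by -0.29 ± 0.12 with overlapping groups. Dentate granule cell genes were higher in 8 of 10 (median 0.15) and CA pyramidal cell genes in 8 of 10 (median 0.10), each with 0 genes at an unadjusted p of 0.05. The dentate median was 0.03 without RD-fed mouse 1 and 0.04 without HFD-fed mouse 2, and the CA median was 0.06 without HFD-fed mouse 2. All 9 neuronal cytoskeleton genes were lower, by a median of 0.04. Nefh, the heavy neurofilament, was the 1 of them at that p, against 2.28% of all clusters lower. Adult neurogenesis genes were lower in 11 of 12, with a median of -0.05, which was 0.04 without HFD-fed mouse 1, 0.01 without RD-fed mouse 2 and -0.15 without RD-fed mouse 1. Dcx, the microtubule protein of young neurons, read 6.12, 5.98 and 5.79 with RD and 5.66, 5.66 and 5.65 with HFD, and its wild-type difference was 0.07. Of 10 somatostatin and opioid receptor genes, 8 were lower, with a median of -0.03. At an unadjusted p of 0.05, 1 was higher and 1 lower, against 2.34% and 2.28% of all clusters. Within that list Oprm1, the μ-opioid receptor, was higher by 0.27 ± 0.09, and Sstr2, a somatostatin receptor, lower by 0.27 ± 0.12.

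Genes of sterol and fatty acid synthesis, which are under the control of the SREBP transcription factors, were mostly slightly lower. Of 16 cholesterol synthesis genes, 13 were lower (median -0.09, wild-type median -0.07), with 0 at an unadjusted p of 0.05. The cholesterol synthesis median ran from -0.14 to -0.06 with single arrays left out. Cyp51, a sterol demethylase, differed by -0.17 ± 0.08, Sqle, the squalene epoxidase, by -0.19 ± 0.10 and Hmgcs1, the HMG-CoA synthase, by -0.13 ± 0.07. Of 15 fatty acid synthesis genes, 12 were lower (median -0.03). Scd1, the stearoyl-CoA desaturase, read 9.40, 9.42 and 9.49 with RD and 9.35, 9.09 and 9.14 with HFD in App mice, and 9.53, 9.52 and 9.34 with RD and 9.31, 9.20 and 9.15 with HFD in wild-type mice. Its differences were -0.24 ± 0.09 and -0.25 ± 0.09, with no overlap in either genotype. Elovl6, a fatty acid elongase, differed by -0.18 ± 0.10 with overlapping groups. In the list of fatty acid oxidation and ketones, Ppara, the nuclear receptor that turns on fatty acid oxidation, differed by 0.31 ± 0.12. Mlycd, a malonyl-CoA decarboxylase, differed by 0.34 ± 0.14. The groups overlapped for both genes, and the list median was 0.02. Of the 20 genes of that list, 0 were higher and 2 lower without overlap, against 4.98% and 4.64% of all clusters. Plin4, a lipid droplet coat protein, read 6.42, 5.75 and 5.87 with RD and 6.60, 7.08 and 5.96 with HFD. Insulin, IGF and adipokine signalling genes had a median of -0.02 and 0 of 18 at an unadjusted p of 0.05.

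**Figure D5:**
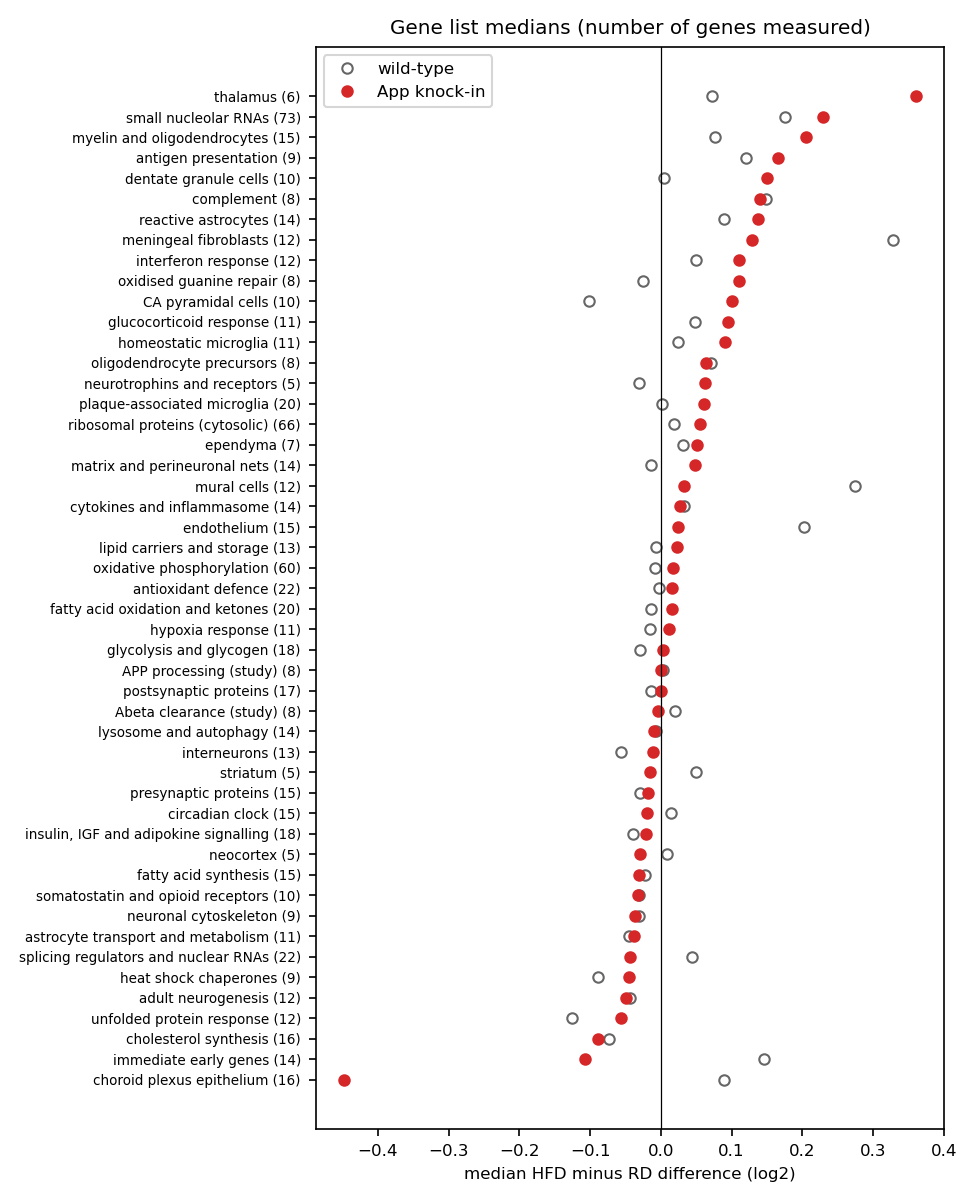
Median HFD minus RD difference (log2, horizontal axis) of each gene list in App mice (filled) and wild-type mice (open), with the number of genes measured. Thalamus genes (0.36, carried by 1 HFD-fed mouse) and snoRNAs (0.23) have the highest App medians, choroid plexus genes (-0.45) the lowest, and most lists lie within 0.1 of 0.

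Vessel and meningeal lists had medians of 0.02 for endothelium, 0.03 for mural cells and 0.13 for meningeal fibroblasts in App mice, against wild-type medians of 0.20, 0.27 and 0.33. The mural mean was 0.10, above its median. With single arrays left out, the App median ran from -0.00 to 0.19 for mural cells and from -0.06 to 0.25 for meningeal fibroblasts. Myl9, a smooth muscle myosin light chain, read 6.61, 6.89 and 6.64 with RD and 7.11, 7.09 and 7.21 with HFD in App mice. In wild-type mice, 4 of 12 mural, 2 of 15 endothelium and 1 of 12 meningeal fibroblast genes were higher at an unadjusted p of 0.05. Of all clusters, 2.95% were. The diet-by-genotype interaction was at that p in 0 genes of these 3 lists, against 4.97% of all clusters.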

How the data were processed

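Total RNA from each hippocampus was labelled and hybridised to an Affymetrix whole-transcript mouse array. The authors computed gene-level estimates with the Transcriptome Analysis Console, and the deposited values are log2 signals of 41345 transcript clusters. The sources used here do not give the background correction or normalisation. The arrays have no count depth, so their number limits the precision. No genome build is named, and no array coordinates were used.

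Clusters were named through the platform annotation, updated to RefSeq GRCm38.p6 symbols by gene number: 23521 had 1 symbol, 1820 several and 16004 none. Of 687 genes in hand-made lists, 626 were measured, each through its brightest cluster, beside ribosomal protein and snoRNA lists made by symbol. No red blood cell gene of the 5 listed was measured. The lists, and the genes studied, were chosen with earlier results of these data known.

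The 4 groups were fitted in limma 3.58.1 (R 4.3.3; lmFit and eBayes) without a block, with the 2 diet differences and their interaction as contrasts and Benjamini-Hochberg adjustment over all clusters. The fit was tested on simulated data. P-values measure the spread between these mice. Exact permutation of 3 against 3 arrays cannot go below a p of 0.1. Named genes were the 12 smallest p-values in each direction above an intensity of 100 and the 4 in each direction below it, with non-overlapping App groups, leaving out choroid plexus genes, predicted genes, small RNAs and chemosensory receptors, and up to 4 genes per list. SnoRNAs, microRNAs and genes with a particular pattern were also described after their values were seen. Alternatives were other normalisations, filters and variance models, array weights, a replicate block, the choroid plexus level as a covariate, and leaving out each array.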

Additional observations from a re-analysis of the deposited data

How the results depend on the processing

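Clusters at an adjusted p of 0.05 between HFD-fed and RD-fed App mice stayed at 0 under every alternative run except the choroid plexus covariate, which gave 1 cluster without a symbol, and 1 for the interaction. Restricting the fit to clusters above an intensity of 100 gave 400 higher and 219 lower at an unadjusted p of 0.05. The fit of all clusters gave 220 and 100 of the same clusters. Values and model were the same in both fits, and only the clusters from which eBayes draws its shared variance differed. Of the clusters above an intensity of 100, 609 and 418 had non-overlapping groups, since fewer clusters were counted. The 1.5-fold cut left 1 cluster with array weights and 7 with the choroid covariate, against 4. Leaving out 1 array gave 883 to 1174 higher and 870 to 1228 lower clusters at an unadjusted p of 0.05, 2057 to 4535 and 1920 to 4308 non-overlapping clusters (fewer values have to be separated), and 3 to 15 clusters past the 1.5-fold cut. Ttr was the 1 named gene that changed sign, to 0.0205 with the choroid covariate, which is built from it. The mice of the 2 diets share only replicate numbers, whose deviations correlated at 0.01, 0.01 and 0.12, and a replicate block gave 0 calls, 1066 higher and 1116 lower clusters at an unadjusted p of 0.05. Non-overlap was not computed for the replicate block, array weights or the covariate. Among 1027 list medians under alternatives, 32 moved by more than the spread between arrays. Direction was less stable for lists with a median near 0. The sign differed in 7 alternatives for hypoxia response genes and in 6 each for interneuron and glycolysis genes. It differed in 0 for snoRNAs, complement and myelin genes. With 3 mice per diet and a median standard error of 0.09 above an intensity of 100 and 0.16 below it, dim genes are the least certain.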

Other observations

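Stress and maintenance pathways not described above had medians between -0.06 and 0.11 in App mice. Heat shock chaperone genes were lower in 7 of 9 (median -0.05, wild-type median -0.09) and unfolded protein response genes in 9 of 12 (median -0.06, wild-type median -0.13), each with 0 at an unadjusted p of 0.05 in App mice. Genes that repair oxidised guanine were higher in 5 of 8 (median 0.11, wild-type median -0.02), also with 0 at that p. Of these 8 genes, 0 had a mean above an intensity of 100. Glucocorticoid response genes were higher in 8 of 11 (median 0.10, wild-type median 0.05), again with 0 at that p. The oxidised guanine median was 0.04 without RD-fed App mouse 1 and the glucocorticoid median 0.04 without HFD-fed App mouse 2. With single arrays left out, the heat shock median ran from -0.08 to -0.02 and the unfolded protein response median from -0.12 to -0.01. Oxidative phosphorylation genes had a median of 0.02 over 60 genes, the circadian clock -0.02 over 15, lysosome and autophagy genes -0.01 over 14 and antioxidant genes 0.02 over 22. In the glycolysis and glycogen list the median was 0.00, and Pgam1, the phosphoglycerate mutase, read 9.23, 9.25 and 9.13 with RD and 9.08, 9.04 and 9.03 with HFD in App mice, without overlap.

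Neu4, a sialidase of the oligodendrocyte lineage, read 5.26, 5.20 and 5.15 with RD and 5.63, 5.53 and 5.35 with HFD in App mice. It was the 1 of 8 oligodendrocyte precursor genes at an unadjusted p of 0.05, against 2.34% of all clusters higher at that p. Tshz2, a cortical transcription factor, read 8.65, 8.32 and 8.41 with RD and 8.19, 7.91 and 8.30 with HFD. It was the 1 of 5 neocortex genes at that p, against 2.28% of all clusters lower at that p. Among nuclear small RNAs outside the snoRNA list, Rnu3a, a U3 RNA gene, differed by 0.47.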
